A study of Mus musculus with 6 samples.

Results

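A set of 10 genes of the megakaryocyte and platelet programme were followed in mouse bone marrow CD34- KSL cells, a sorted population enriched for haematopoietic stem cells. The members were taken by gene symbol, and all 10 were found among the 50763 gene symbols of the count table. They are Itga2b, Pf4, Ppbp, Gp1ba, Gp1bb, Gp9, Gp5, Gp6, Clec1b and Rab27b. All mice carried Tal1-tTA+ and TRE-EGFR-tr+, a doxycycline-repressed activator driven by the blood stem cell gene Tal1 and the transgene it switches on. Mice kept without doxycycline made a receptor lacking the cytoplasmic tyrosine kinase domain in addition to the wild-type epidermal growth factor receptor (EGFR-DN, n = 3 libraries). Mice given doxycycline at 0.2 g/L in the drinking water made wild-type receptor only (EGFR-WT, n = 3 libraries). Receptor form and doxycycline therefore cannot be told apart. Ages are not used here, and the labels do not say whether each library came from 1 animal or from a pool.

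Megakaryocytes are the marrow cells that shed platelets, and their late genes encode the receptors, granule proteins and secretion machinery with which platelets bind to a damaged vessel wall and release their contents. Some of these transcripts are already present in haematopoietic stem cells. CD41, the product of Itga2b, and the plasma protein gene Vwf are used to mark mouse stem cells biased towards the platelet lineage. GATA and ETS transcription factors are the best known activators of megakaryocyte genes, and their target sequences occur in many megakaryocyte promoters.

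Promoter stretches of 4 members are shown, for a pair whose ratio kept within a narrow range over the libraries and a pair that parted in EGFR-DN replicate 3. Pf4 and Itga2b were the most abundant members by CPM and peaked in the same library, while Gp1ba and Gp5 lay at opposite extremes in EGFR-DN replicate 3. Of all genes tested, 38.1% were highest and 38.4% lowest in that replicate. The pairs were picked from these values, and a link between promoter and level was not tested. Each stretch is the 250 bases before the annotated start, 5' to 3' on the gene's own strand, from RefSeq (GRCm38.p6). Capitals mark the motifs searched. For GATA factors these were AGATAA (which reads TTATCT where it lies on the opposite strand) and TGATAA (which then reads TTATCA). For ETS factors the motif was AGGAAG, and on the opposite strand it reads CTTCCT. The Pf4 stretch is chr5:90772185-90772434 on the plus strand, Itga2b is chr11:102469884-102470133 on the minus strand, Gp1ba is chr11:70638872-70639121 on the plus strand, and Gp5 is chr16:30310782-30311031 on the minus strand.
Pf4: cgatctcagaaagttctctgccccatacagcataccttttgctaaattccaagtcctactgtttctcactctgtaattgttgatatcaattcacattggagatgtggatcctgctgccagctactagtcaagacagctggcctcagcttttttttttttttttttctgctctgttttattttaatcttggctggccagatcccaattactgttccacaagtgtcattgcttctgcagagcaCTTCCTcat
Itga2b: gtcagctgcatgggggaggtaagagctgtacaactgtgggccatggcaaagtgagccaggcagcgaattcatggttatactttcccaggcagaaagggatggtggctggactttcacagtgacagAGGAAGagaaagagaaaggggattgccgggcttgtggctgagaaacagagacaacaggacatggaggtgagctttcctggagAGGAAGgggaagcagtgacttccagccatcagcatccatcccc
Gp1ba: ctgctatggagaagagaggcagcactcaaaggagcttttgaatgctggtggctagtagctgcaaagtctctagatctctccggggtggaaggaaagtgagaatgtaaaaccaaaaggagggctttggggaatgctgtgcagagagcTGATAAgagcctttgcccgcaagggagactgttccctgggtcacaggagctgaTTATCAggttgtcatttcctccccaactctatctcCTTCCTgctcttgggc
Gp5: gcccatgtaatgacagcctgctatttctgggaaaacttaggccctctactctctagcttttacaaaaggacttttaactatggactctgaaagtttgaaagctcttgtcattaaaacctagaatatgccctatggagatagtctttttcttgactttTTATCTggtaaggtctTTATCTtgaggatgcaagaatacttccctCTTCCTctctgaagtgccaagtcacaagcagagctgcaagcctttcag

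Both strands were searched, and no match of one motif overlapped a match of another in these promoters. The table held promoters of 9 members. Of these 9, 4 held a GATA match (AGATAA or TGATAA), namely Clec1b, Gp6, Gp1ba and Gp5, against 16.6% of the 32851 promoter stretches of equal length. An ETS match (AGGAAG) was found in 5 of the 9, namely Pf4, Gp9, Gp1ba, Itga2b and Gp5, against 29.5% of all stretches. Gp1ba and Gp5 held both kinds, as did 4.72% of all stretches. Ppbp and Gp1bb held neither in this window. These are matches of letters, and no binding was measured.

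Total counts ranged from 24073133 to 36032428 per library. Levels are given as CPM (counts per 10⁶ counts) after TMM scaling (trimmed mean of M-values). Egfr, the gene of the receptor, was at 100.8 ± 44.7 CPM in EGFR-DN and 0.196 ± 0.0386 CPM in EGFR-WT (SD, n = 3 each, edgeR adjusted p = 0.00981). Each EGFR-WT library had 6 Egfr counts. EGFR-DN replicate 3 stood apart, with 25.4% of its counts in 8 rRNA-like genes against 4.71% to 6.15% in the other 5 libraries. Kit, which defines the sort, was the most abundant of 12 stem cell markers, at 736, 806 and 1962 CPM in EGFR-DN and 806, 786 and 771 CPM in EGFR-WT, so that its log2 fold change of 0.57 (edgeR adjusted p = 0.690) was −0.03 without EGFR-DN replicate 3. Cd34, whose protein the sort excludes, was at 494 ± 101 CPM in EGFR-DN and 378 ± 51.8 CPM in EGFR-WT, so its transcript was present in both groups.

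The megakaryocyte and platelet genes did not pass the test between EGFR-DN and EGFR-WT in any direction. Of the 10 members, 9 passed the filter on low counts and Gp6 did not. By the quasi-likelihood test of edgeR, 0 of the 9 were called at an adjusted p of 0.05, where 1 of 19313 genes was called in all (0.00518%). The gene called was Egfr itself. At an unadjusted p under 0.05 there were 0 members, against 6.69% of all genes tested, and DESeq2 called 0 members where it called 0.699% of all genes. Without EGFR-DN replicate 3, edgeR called 0 members and 0.286% of all genes. The median log2 fold change of the 9, EGFR-DN over EGFR-WT, was −0.03, and over all genes tested it was 0.01. In none of the 9 did the groups separate, whereas they separated in 17.9% of all genes tested, with EGFR-DN above EGFR-WT in 9.21% and below it in 8.72%. In bulk RNA, fewer cells of a type and less RNA per cell cannot be told apart, which holds for every level below.

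**Figure D1:**
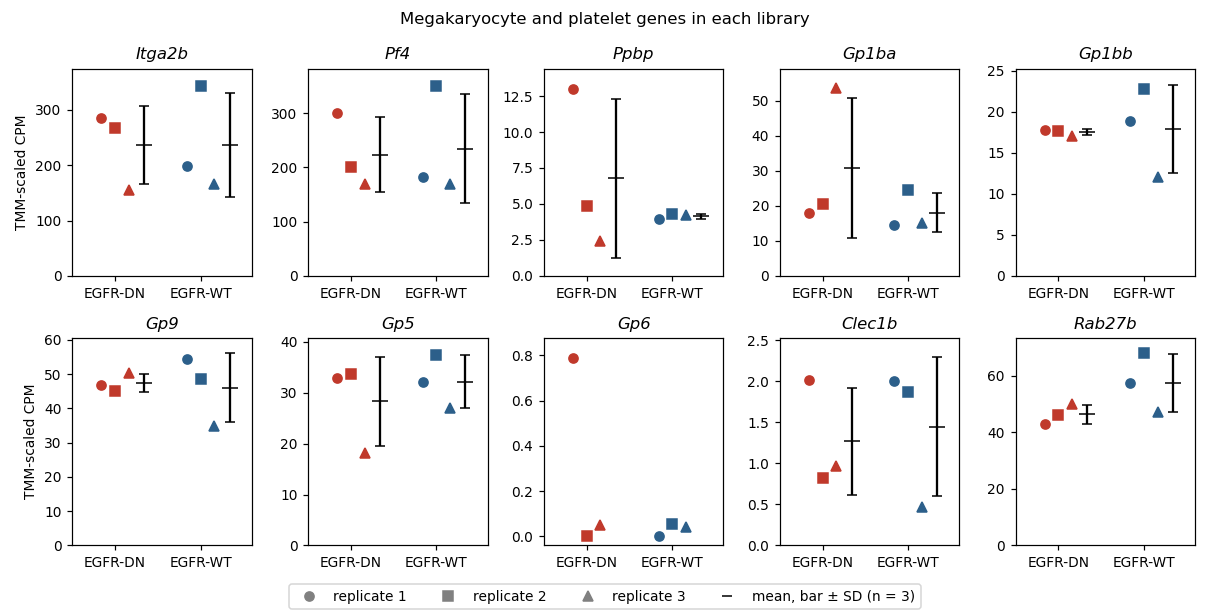
TMM-scaled CPM of the 10 genes in each library, EGFR-DN left and EGFR-WT right, with a marker shape per replicate number and, except for Gp6, the mean with SD (n = 3). The groups overlap in every panel, Ppbp and Gp6 have a single high point in EGFR-DN replicate 1 (13.01 and 0.788 CPM), and Gp1ba has one in EGFR-DN replicate 3 (53.7 CPM).

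The integrin gene Itga2b encodes the alpha chain (CD41) of the platelet fibrinogen receptor. It was at 285, 268 and 156 CPM in EGFR-DN replicates 1 to 3, and at 199, 344 and 167 CPM in EGFR-WT replicates 1 to 3. EGFR-WT replicate 2 was the highest library and EGFR-DN replicate 3 the lowest, and the other EGFR-DN values lay inside the EGFR-WT range. The means were 236 ± 70.1 CPM in EGFR-DN and 237 ± 94.1 CPM in EGFR-WT, and the fold was 0.999, with a 95% interval from 0.568 to 1.76 (edgeR adjusted p = 0.999). Within EGFR-WT alone the highest library was 2.06-fold above the lowest. Itgb3, which encodes the beta chain that pairs with CD41, was at 59.6, 79.3 and 109 CPM in EGFR-DN and 108, 120 and 81.9 CPM in EGFR-WT (log2 fold change −0.32, SE 0.26, edgeR adjusted p = 0.703). The 2 chains did not keep a fixed ratio. Itga2b counts were 4.78, 3.37 and 1.43 times those of Itgb3 in EGFR-DN replicates 1 to 3, and 1.84, 2.87 and 2.04 times in EGFR-WT replicates 1 to 3.

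The secreted chemokine genes Pf4 and Ppbp lie next to each other on mouse chromosome 5 and encode major alpha granule proteins of platelets, yet they differed widely in level. Pf4 (platelet factor 4, CXCL4) binds heparin and is also known from mice as a megakaryocyte product that holds stem cells in quiescence. It was at 301, 201 and 169 CPM in EGFR-DN replicates 1 to 3, and at 182, 349.9 and 170.04 CPM in EGFR-WT replicates 1 to 3. EGFR-WT replicate 2 was the highest library, as for Itga2b, and EGFR-DN replicate 3 the lowest. The fold was 0.956, with a 95% interval from 0.540 to 1.69 (edgeR adjusted p = 0.940), and leaving out EGFR-WT replicate 2 moved the log2 fold change from −0.07 to 0.34. The ratio of Pf4 to Itga2b counts kept within 0.749 to 1.09 over the 6 libraries.

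Ppbp encodes the precursor from which the neutrophil-attracting chemokine NAP-2 (CXCL7) is cut. It was at 13.01, 4.88 and 2.43 CPM in EGFR-DN replicates 1 to 3, and at 3.94, 4.29 and 4.22 CPM in EGFR-WT replicates 1 to 3. The EGFR-WT libraries lay close together, while EGFR-DN replicate 1 was the highest and EGFR-DN replicate 3 the lowest of all 6. The means were 6.77 ± 5.54 CPM in EGFR-DN and 4.15 ± 0.186 CPM in EGFR-WT, and the log2 fold change was 0.71 (SE 0.56, adjusted p = 0.701 by edgeR). A single library set the direction, since the log2 fold change was −0.18 without EGFR-DN replicate 1 and 1.10 without EGFR-DN replicate 3 (edgeR adjusted p = 0.814 and 0.261). The unadjusted edgeR p without EGFR-DN replicate 3 was 0.0186, in a fit where 13.6% of genes had one under 0.05. Pf4 counts exceeded those of Ppbp 23.2-fold in EGFR-DN replicate 1 and between 40.3-fold and 81.6-fold in the other 5 libraries.

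**Figure D2:**
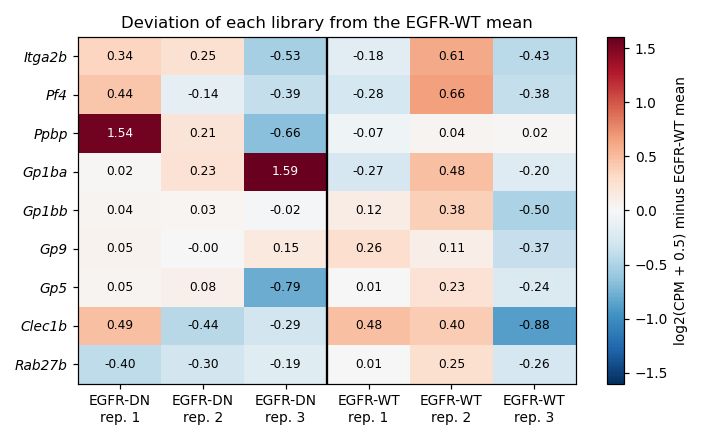
Each cell gives log2(CPM + 0.5) of a member in a library minus the EGFR-WT mean of that member, EGFR-DN libraries left of the line and EGFR-WT libraries right of it. EGFR-WT replicate 2 is above the mean for 9 of 9 members and EGFR-WT replicate 3 for 1, while the largest deviations are Gp1ba in EGFR-DN replicate 3 (1.59) and Ppbp in EGFR-DN replicate 1 (1.54).

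Gp1ba, Gp1bb, Gp9 and Gp5 encode the receptor complex with which platelets catch von Willebrand factor under flow. Gp1ba encodes the chain that binds this factor, Gp1bb the chain linked to it by disulfide bonds, Gp9 a small partner needed for the complex at the surface, and Gp5 a further leucine-rich chain that thrombin cleaves. Gp9 had the smallest ratio of highest to lowest library of these over all 6 libraries, 1.56, at 46.9, 45.1 and 50.2 CPM in EGFR-DN replicates 1 to 3 and 54.4, 48.7 and 34.8 CPM in EGFR-WT replicates 1 to 3. Its EGFR-DN values lay inside the EGFR-WT range. The fold was 1.03, with a 95% interval from 0.756 to 1.41 (edgeR adjusted p = 0.927). Gp1bb was at 17.8, 17.7 and 17.0 CPM in EGFR-DN and 18.8, 22.7 and 12.1 CPM in EGFR-WT, again with EGFR-DN inside the EGFR-WT range (fold 0.980, interval 0.661 to 1.45). Gp1bb overlaps Septin5 in the annotation and its counts were not whole numbers, so the level of Gp1bb is uncertain. Septin5 was at 8.82 CPM in EGFR-DN replicate 3 and at 1.70 to 2.81 CPM in the other 5 libraries, while Gp1bb was not high in that replicate.

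Gp1ba had its highest and Gp5 its lowest value in EGFR-DN replicate 3, the rRNA-rich library. Of all genes tested, 38.1% were highest and 38.4% lowest there. Gp1ba was at 17.9, 20.6 and 53.7 CPM in EGFR-DN replicates 1 to 3, and at 14.4, 24.6 and 15.2 CPM in EGFR-WT replicates 1 to 3. Without that library the 5 remaining values interleaved. The log2 fold change was 0.76 (SE 0.45, edgeR adjusted p = 0.690) with all libraries and 0.08 without EGFR-DN replicate 3. Gp5 was at 33.0, 33.8 and 18.3 CPM in EGFR-DN replicates 1 to 3, and at 32.1, 37.5 and 27.0 CPM in EGFR-WT replicates 1 to 3. Its lowest value was EGFR-DN replicate 3 and the other EGFR-DN values lay inside the EGFR-WT range. The log2 fold change was −0.18 (SE 0.26, edgeR adjusted p = 0.784) with all libraries and 0.05 without that replicate. Slc25a11, the neighbour of Gp1ba, was at 55.3 CPM in EGFR-DN replicate 3 and at 70.4 to 83.9 CPM in the other 5 libraries. Whether reads of Slc25a11 were counted for Gp1ba was not tested. The part of rRNA content in the Gp1ba and Gp5 values of EGFR-DN replicate 3 was not tested either.

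The 2 activating receptors were the least abundant members by CPM. Gp6 encodes glycoprotein VI, the platelet collagen receptor, which signals through the Fc receptor gamma chain. It had 27, 0 and 1 counts in EGFR-DN replicates 1 to 3 and 0, 2 and 1 counts in EGFR-WT replicates 1 to 3. Except in EGFR-DN replicate 1, at 0.788 CPM, these lay below 3 counts, the floor used here, which is 0.0799 to 0.152 CPM depending on the library. Gp6 was tested only in the alternative with no filter, where it was not called. Its signalling partner gene Fcer1g was well detected, at 36.7, 41.0 and 14.5 CPM in EGFR-DN and 22.0, 32.8 and 22.6 CPM in EGFR-WT (edgeR adjusted p = 0.789).

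Clec1b encodes CLEC-2, the receptor for podoplanin. It was at 2.01, 0.823 and 0.964 CPM in EGFR-DN replicates 1 to 3 and 2.00, 1.87 and 0.473 CPM in EGFR-WT replicates 1 to 3. The 2 groups covered nearly the same range, and the fold was 0.875 with an interval from 0.323 to 2.37, the widest of the 9 members on the log2 scale. Clec12b, which RefSeq places across Clec1b, had 4 to 20 counts per library, at most 0.635 CPM.

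Rab27b encodes a small GTPase that tethers granules for release, and in mice lacking it platelets hold fewer dense granules. Its interval was the narrowest of the 9 members on the log2 scale. Rab27b was at 43.0, 46.2 and 49.9 CPM in EGFR-DN replicates 1 to 3, and at 57.3, 68.0 and 47.4 CPM in EGFR-WT replicates 1 to 3. All EGFR-DN values were below the EGFR-WT mean, but EGFR-WT replicate 3 fell among them. The means were 46.4 ± 3.44 CPM in EGFR-DN and 57.6 ± 10.3 CPM in EGFR-WT, and the log2 fold change was −0.31 (SE 0.17, interval −0.72 to 0.09, adjusted p = 0.690 by edgeR). Without EGFR-DN replicate 3 it was −0.37 with an unadjusted p of 0.0343 (adjusted p = 0.327), in a fit where 13.6% of genes had an unadjusted p under 0.05. Its paralogue Rab27a was at 90.9, 104 and 44.7 CPM in EGFR-DN and 104, 103 and 96.1 CPM in EGFR-WT, with EGFR-DN replicate 3 the lowest and EGFR-DN replicate 1 also below the EGFR-WT range (log2 fold change −0.34, SE 0.30, adjusted p = 0.717).

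**Figure D3:**
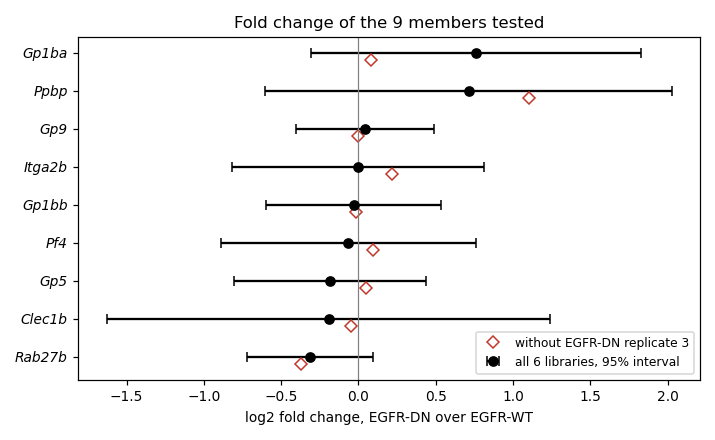
Log2 fold change of EGFR-DN over EGFR-WT for the 9 members tested, with the 95% interval of the edgeR fit (black) and the value without EGFR-DN replicate 3 (open diamonds). Every interval includes 0, and Gp1ba moves from 0.76 to 0.08 when that replicate is left out.

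Per length of annotated exon, the members covered a wide range in the same cells. CPM was divided by the kilobases of exon of each gene in the GENCODE M21 annotation. This length joins the exons of all annotated transcripts of a gene and can exceed that of the transcript present, so the order of the genes is approximate. Pf4 was highest, at 310.3 ± 95.7 CPM per kilobase in EGFR-DN and 325 ± 139 in EGFR-WT. Gp9, at 53.8 ± 2.94 in EGFR-DN and 52.2 ± 11.4 in EGFR-WT, and Itga2b, at 43.3 ± 12.9 in EGFR-DN and 43.4 ± 17.3 in EGFR-WT, followed and overlapped each other in both groups. Gp5, Gp1bb and Gp1ba came next, at 12.9, 8.39 and 11.3 CPM per kilobase in EGFR-DN and 14.7, 8.56 and 6.65 in EGFR-WT. Gp1bb and Gp1ba overlapped in both groups, and Gp5 stood clear of Gp1bb in EGFR-WT but not in EGFR-DN. Rab27b and Ppbp were at 4.34 and 6.25 in EGFR-DN and at 5.39 and 3.83 in EGFR-WT, and their ranges overlapped in EGFR-DN only. Clec1b, at 0.248 ± 0.127 in EGFR-DN and 0.284 ± 0.166 in EGFR-WT, was below both in every library. By this measure the 3 other parts of the von Willebrand factor receptor were below Gp9 in every library.

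**Figure D4:**
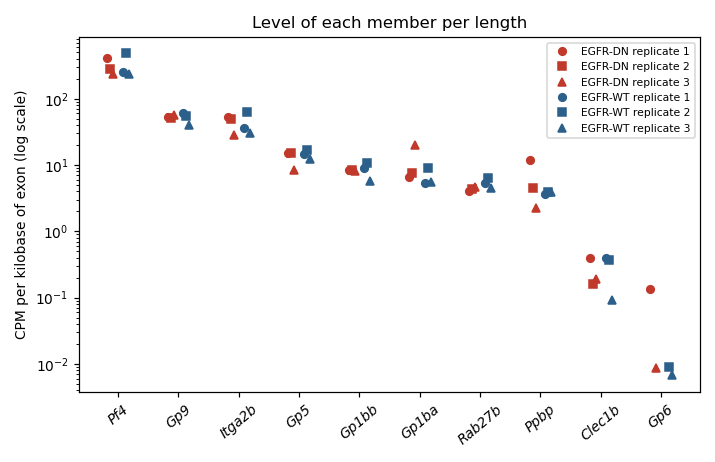
CPM per kilobase of exon for each member on a log axis, ordered by the EGFR-WT mean, with EGFR-DN libraries left and EGFR-WT libraries right for each gene (values of 0 for Gp6 are not drawn). Pf4 lies at 325 and Clec1b at 0.284 CPM per kilobase in EGFR-WT.

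For the summed CPM and the median deviation, the range of the EGFR-WT libraries took in every EGFR-DN library. Of the members tested, only Gp9 and Gp1bb had every EGFR-DN value inside the EGFR-WT range. The summed CPM of the 10 members was 761, 637 and 518 in EGFR-DN replicates 1 to 3, and 564, 901 and 478 in EGFR-WT replicates 1 to 3, so EGFR-WT held both the highest and the lowest sum. Pf4 and Itga2b made up most of each sum. Without them it was 174, 169 and 193 in EGFR-DN and 183, 208 and 141 in EGFR-WT. EGFR-WT again held both extremes, but EGFR-DN replicate 3 was then the highest of its group. EGFR-WT replicate 2 was the highest library for 5 of the 9 members, Itga2b, Pf4, Gp1bb, Gp5 and Rab27b, whereas 10.6% of all genes tested peaked there. EGFR-DN replicate 3 was the lowest for 4, Pf4, Itga2b, Gp5 and Ppbp, as it was for 38.4% of all genes tested. The median deviation of the members from the EGFR-WT mean, in log2 units, was 0.05, 0.03 and −0.29 in EGFR-DN replicates 1 to 3 and 0.01, 0.38 and −0.37 in EGFR-WT replicates 1 to 3.

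Markers of other cells were read beside these sums. Of 8 genes of platelets and mature megakaryocytes, 8 were tested, with 0 called by edgeR or DESeq2 and 0 at an unadjusted p under 0.05. Those outside the members were Treml1, at 10.3, 7.94 and 5.88 CPM in EGFR-DN and 6.61, 13.5 and 6.31 CPM in EGFR-WT, Tubb1, at 0.558 to 2.19 CPM in EGFR-DN and 0.959 to 2.95 CPM in EGFR-WT, and Alox12, at 1.47 to 2.13 CPM in EGFR-DN and 1.77 to 2.57 CPM in EGFR-WT. Treml1, a granule receptor of megakaryocytes and platelets, was highest in EGFR-WT replicate 2, where Pf4 and Itga2b peaked. Tubb1, the tubulin of the platelet rim, was not high there, at 0.959 CPM. The 8 markers of mast cells and basophils summed to 57.7, 55.5 and 89.0 CPM in EGFR-DN and 71.0, 115.3 and 67.5 CPM in EGFR-WT, and so peaked in the same library. Of the 6 tested, 1 lay above 0 and 5 below (median log2 fold change −0.77). Their most abundant gene, the mast cell protease gene Cpa3, was the one above 0, at 42.6 ± 10.0 CPM in EGFR-DN and 24.02 ± 6.74 CPM in EGFR-WT. Mcpt8, a basophil protease gene, was at 6.62 ± 1.16 CPM in EGFR-DN and 16.8 ± 3.15 CPM in EGFR-WT (log2 fold change −1.34, adjusted p = 0.590 by edgeR and 0.000239 by DESeq2).

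The 12 erythroid markers summed to 1677, 1798 and 1797 CPM in EGFR-DN and 2389, 2051.5 and 1941 CPM in EGFR-WT, so every EGFR-DN sum lay below every EGFR-WT sum. The carbonic anhydrase gene Car2 made up most of this sum, at 1256 ± 206 CPM in EGFR-DN and 1791 ± 315 CPM in EGFR-WT, whereas 7 of the 10 erythroid markers tested lay above 0 (median 0.32). The sums of both myeloid lists were higher in every EGFR-DN library than in any EGFR-WT library. The 9 neutrophil markers summed to 896, 899.6 and 1434 CPM in EGFR-DN and 403, 584 and 452 CPM in EGFR-WT. Of these, 8 of 8 tested lay above 0 (median 1.497), and 5 had an unadjusted p under 0.05, against 6.69% of all genes tested. Without EGFR-DN replicate 3 the median was 1.46, over 9 genes tested. Mpo, the myeloperoxidase gene, which myeloid progenitors also express, was the most abundant of them, at 854 ± 353 CPM in EGFR-DN and 339.8 ± 84.5 CPM in EGFR-WT (adjusted p = 0.690 by edgeR and 0.0250 by DESeq2). The 8 markers of monocytes and macrophages summed to 110.5, 84.6 and 52.7 CPM in EGFR-DN and 26.7, 42.5 and 41.1 CPM in EGFR-WT. Of these, 5 of 5 tested lay above 0 (median 1.34), and 4 had an unadjusted p under 0.05, against the same 6.69% of all genes tested. Irf8, a transcription factor gene of monocytes, was at 50.2 ± 14.7 CPM in EGFR-DN and 21.6 ± 5.08 CPM in EGFR-WT (adjusted p = 0.690 by edgeR and 0.0196 by DESeq2).

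Of the 12 stem cell markers, 3 lay above 0 and 9 below (median −0.26, and −0.61 without EGFR-DN replicate 3), with sums of 1149, 1345 and 2848 CPM in EGFR-DN and 1655, 1412 and 1463 CPM in EGFR-WT. Procr, which encodes the stem cell surface protein EPCR, was at 23.5 ± 8.64 CPM in EGFR-DN and 56.1 ± 16.7 CPM in EGFR-WT (adjusted p = 0.690 by edgeR and 0.0495 by DESeq2). The 3 markers of CD34-positive progenitors, led by Cd34, all lay above 0, with sums of 584 to 916 CPM in EGFR-DN and 466 to 597 CPM in EGFR-WT. Sums for T and NK cells, led by Nkg7, were 165 to 259 CPM in EGFR-DN and 114.1 to 159 CPM in EGFR-WT, and those for the B lineage, led by Cd79b, were 43.9 to 61.0 CPM in EGFR-DN and 34.9 to 43.7 CPM in EGFR-WT. In both lists every EGFR-DN sum lay above every EGFR-WT sum, as in the myeloid lists. Of the T and NK genes tested 3 lay above 0 and 2 below (median 0.57), and of the B lineage genes 5 of 5 lay above 0 (median 0.85). Endothelial and stromal markers, led by Pecam1, summed to 88.6 to 178 CPM in EGFR-DN and 76.5 to 92.6 CPM in EGFR-WT. EdgeR called 0 genes of these marker lists, and without EGFR-DN replicate 3 it called Ctsg, Camp and Irf8 as higher. Beyond those given above, DESeq2 called Cx3cr1 and Flt3 as higher. The part of these markers in the values of the members and of the lists that follow was not tested.

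Other genes of the megakaryocyte programme were read from 6 lists, and edgeR called 0 of their genes. Without adjustment, 5 of them lay above 0 and 7 below 0 with a p under 0.05, which is 10.8% of the genes in these lists that were tested, against 6.69% of all genes tested. DESeq2 called 3 of the list genes, all lower in EGFR-DN, namely Mmrn1, Cd36 and Esam, where 0.186% of all genes tested were called lower and 0.513% higher. Without EGFR-DN replicate 3 edgeR called 1 list gene, F13a1, as higher, where 0.231% of all genes were called higher and 0.0552% lower. Among 16 transcription factors of the lineage, 9 lay above 0 and 7 below, with a median of 0.03 that was −0.18 without EGFR-DN replicate 3. The actin-regulated coactivator gene Mrtfa was at 66.5 ± 23.0 CPM in EGFR-DN and 41.8 ± 2.19 CPM in EGFR-WT, and Mafk, a small partner of NF-E2, at 45.0 ± 3.56 CPM in EGFR-DN and 35.3 ± 1.91 CPM in EGFR-WT. Nfe2, whose product drives platelet formation, was at 155 ± 10.3 CPM in EGFR-DN and 204 ± 29.6 CPM in EGFR-WT, and Gata1, a GATA factor of the lineage, at 45.6 ± 13.4 CPM in EGFR-DN and 32.6 ± 6.46 CPM in EGFR-WT. The edgeR adjusted p was 0.690 for each of these 4. Mrtfa was at 93.1 CPM and Gata1 at 61.1 CPM in EGFR-DN replicate 3. Without that replicate the log2 fold change went from 0.67 to 0.34 for Mrtfa and from 0.48 to 0.21 for Gata1. It went from 0.35 to 0.32 for Mafk and from −0.39 to −0.37 for Nfe2.

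Of 17 granule and secreted protein genes 14 were tested, 8 above 0 and 6 below (median 0.04, and −0.06 without EGFR-DN replicate 3), and the fibrinogen genes Fga, Fgb and Fgg had 0 counts in all libraries. Mmrn1, which encodes the factor V-binding granule protein multimerin, was at 239.9, 292 and 263 CPM in EGFR-DN and 589.6, 485 and 361 CPM in EGFR-WT, with separated groups. Its log2 fold change was −0.85 (SE 0.23), with an unadjusted p of 0.00717 and an adjusted p of 0.690, which was 0.0477 by DESeq2. The granule membrane gene Cd63 was at 166 ± 64.1 CPM in EGFR-DN and 278 ± 30.1 CPM in EGFR-WT, also separated (edgeR adjusted p = 0.690). Mmrn1 and Cd63 were taken for their small p, and EGFR-DN lay below EGFR-WT without overlap in 8.72% of all genes tested. Vwf, which encodes the ligand of the Gp1ba product, was at 125, 153 and 368 CPM in EGFR-DN and 233, 186 and 136 CPM in EGFR-WT. It was highest in the rRNA-rich library as Gp1ba was, and 38.1% of all genes tested peaked there. F13a1, the A chain gene of factor XIII, was at 14.0 ± 7.59 CPM in EGFR-DN and 7.27 ± 0.783 CPM in EGFR-WT, and the growth factor gene Tgfb1 at 213 ± 117 CPM in EGFR-DN and 126 ± 21.7 CPM in EGFR-WT, both with overlapping groups. Without EGFR-DN replicate 3, where F13a1 was at 5.43 CPM, its log2 fold change was 1.32 with an edgeR adjusted p of 0.0441. Tgfb1 was at 151, 141 and 348 CPM in EGFR-DN replicates 1 to 3. The Tgfb1 log2 fold change was 0.76 with all libraries and 0.21 without EGFR-DN replicate 3.

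Of 21 other receptor and adhesion genes 20 were tested, 8 above 0 and 12 below (median −0.14). Esam, a junctional protein of platelets, endothelium and stem cells, was at 50.3 ± 5.95 CPM in EGFR-DN and 82.8 ± 8.20 CPM in EGFR-WT, and F11r, a related junctional protein gene, at 42.2 ± 11.3 CPM in EGFR-DN and 65.5 ± 15.5 CPM in EGFR-WT. Cd36, the thrombospondin receptor gene, was scarce, at 0.711 ± 0.269 CPM in EGFR-DN and 2.37 ± 0.525 CPM in EGFR-WT. In these 3 genes, taken for their small p, every EGFR-DN library lay below every EGFR-WT library, as in 8.72% of all genes tested, and the adjusted p was 0.690 by edgeR. By DESeq2 it was 0.0158 for Esam and 0.0176 for Cd36. F2rl3, the thrombin receptor gene, was at 39.5 ± 3.47 CPM in EGFR-DN and 50.8 ± 7.36 CPM in EGFR-WT. It was also taken for its small p, and its groups overlapped (edgeR adjusted p = 0.690).

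Signalling genes divided evenly, with 10 above 0 and 10 below (median −0.01). The kinase gene Syk, which acts downstream of both Gp6 and Clec1b products, was at 225 ± 120.5 CPM in EGFR-DN and 121 ± 20.9 CPM in EGFR-WT, with 364 CPM in EGFR-DN replicate 3. Ptgs1, the cyclooxygenase of platelets, was at 59.7 ± 4.68 CPM in EGFR-DN and 79.9 ± 13.4 CPM in EGFR-WT, and Tbxas1, the thromboxane synthase gene that acts after it, at 107 ± 20.1 CPM in EGFR-DN and 144 ± 19.1 CPM in EGFR-WT. Rasgrp2, an activator of RAP GTPases, was at 104 ± 14.3 CPM in EGFR-DN and 79.7 ± 7.57 CPM in EGFR-WT. These signalling genes were taken for their small p, and each adjusted p was 0.690 by edgeR. The groups separated for Syk, Ptgs1 and Rasgrp2, as in 17.9% of all genes tested, and overlapped for Tbxas1. The log2 fold change of Syk was 0.89 with all libraries and 0.36 without EGFR-DN replicate 3.

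Of 24 genes of granule formation, RAB27 and release, 11 lay above 0 and 13 below (median −0.01). The RAB27 effector gene Sytl1 was at 15.8 ± 2.10 CPM in EGFR-DN and 10.7 ± 0.482 CPM in EGFR-WT. Rab32, a relative that acts with Rab38 in dense granule formation, was at 53.0 ± 8.56 CPM in EGFR-DN and 70.04 ± 0.624 CPM in EGFR-WT, and the release gene Vamp8 at 281 ± 64.2 CPM in EGFR-DN and 372 ± 15.3 CPM in EGFR-WT. Stx12, an endosomal syntaxin gene, was at 31.1 ± 3.39 CPM in EGFR-DN and 38.0 ± 0.623 CPM in EGFR-WT. Groups did not overlap in these 4 genes, which were taken for their small p, as in 17.9% of all genes tested, and each adjusted p was 0.690 by edgeR.

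The 18 cytoskeleton genes had 17 tested, 11 above 0 and 6 below, with the highest median of these lists, 0.25, which was −0.01 without EGFR-DN replicate 3. The tropomyosin gene Tpm4 was at 35.3 ± 14.7 CPM in EGFR-DN and 20.5 ± 2.14 CPM in EGFR-WT, with 49.6 CPM in EGFR-DN replicate 1 and 20.3 CPM in EGFR-DN replicate 3. Flna, the filamin that anchors the Gp1ba product to actin, was at 349.9 ± 75.1 CPM in EGFR-DN and 249.7 ± 43.6 CPM in EGFR-WT, and Myh9, the myosin of platelet contraction, at 278 ± 30.5 CPM in EGFR-DN and 219.8 ± 34.2 CPM in EGFR-WT. The myosin light chain gene Myl6 was at 51.5 ± 14.1 CPM in EGFR-DN and 68.8 ± 5.02 CPM in EGFR-WT. The adjusted p was 0.690 for each of these 4 by edgeR.

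**Figure D5:**
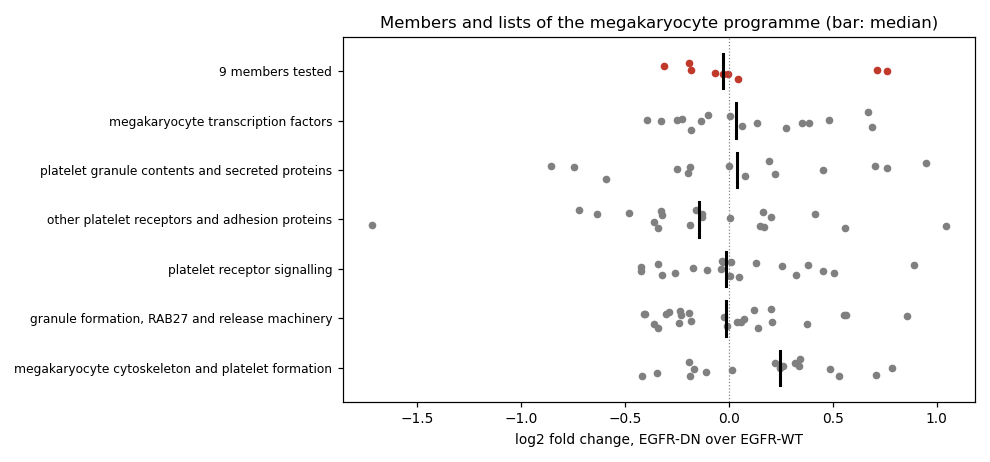
Log2 fold change of EGFR-DN over EGFR-WT for each gene tested of the 9 members (red) and of 6 further lists of the megakaryocyte programme (grey), with a bar at each median. The medians run from −0.14 for other receptors to 0.25 for the cytoskeleton list (−0.01 without EGFR-DN replicate 3), and the lowest single value is that of Cd36 at −1.72.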

How the data were processed

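RNA of sorted CD34- KSL cells was measured in 6 libraries, made from 10 ng of RNA with oligo(dT)-primed SMART-Seq V4 cDNA and Nextera XT and read as 75-base single reads, per the labels' protocols. The authors deposited 1 table of estimated counts by gene symbol with no scaling, in which 79.4% of values were whole numbers, and per the submitters' processing notes DRAGEN, DESeq2 1.40.2, R 4.3.1 and build mm39 were used. Neither the annotation nor the strand setting is given in the sources used here. Since Nextera XT does not mark strand, reads of overlapping genes may be mixed. The design had assumed counts or rounded estimates, and the estimates were rounded here.

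Genes were filtered with filterByExpr (19313 of 50763 kept) and scaled by TMM, and the groups were compared with edgeR 4.0.16 (quasi-likelihood test, two-sided, run in R 4.3.3). P-values were adjusted by Benjamini-Hochberg over all genes, and the threshold was 0.05. The standard error (SE) is the log2 fold change over the root of F, and 95% intervals use the fit's degrees of freedom. The floor is 3 counts per library and covers counting error only, since PCR reads are not independent molecules. Lengths came from GENCODE M21 (GRCm38), a different build from the authors', so no gene coordinates are printed beside the promoters' own.

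The members and lists were chosen with earlier results of these data known. 1 gene of the lists is not reported here. From each list up to 4 genes with the smallest unadjusted p and a mean of at least 1 CPM are named, plus Egfr, Itgb3, Fcer1g, Rab27a, Vwf, Tubb1 and, in the marker lists, the most abundant gene. Septin5, Slc25a11, Clec12b, Treml1, Alox12, Mcpt8, Procr, Ctsg, Camp, Cx3cr1 and Flt3 were named after their values were seen. Mrtfa was matched through an older symbol. Libraries with the same replicate number did not deviate together (correlations of deviations −0.02, 0.05 and 0.06). No pairing by number was therefore seen, which does not show that there was none. No label ties a library to its own animal, and p-values then cover only the spread between these libraries, which may be technical. No library was a duplicate, since chi-square over its degrees of freedom was at least 15.9 for each pair. The scripts were tested on simulated data. Alternatives were other scalings, filters and tests (DESeq2 1.42.0 and limma-voom of limma 3.58.1), removal of rRNA-like genes, a replicate block, and each library left out. DESeq2 without EGFR-DN replicate 3 was added after seeing the data.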

Additional observations from a re-analysis of the deposited data

How the results depend on the processing

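Under all 16 alternatives 0 members passed the adjusted threshold. Over the whole table the count of 1 gene by edgeR became 135 with the Wald test of DESeq2 (99 higher, 36 lower), 0 with limma-voom (1187 at an unadjusted p under 0.05) and 870 with DESeq2 without EGFR-DN replicate 3. It ranged from 0 to 57 when 1 library was left out, with 57 without EGFR-DN replicate 3 and 0 by edgeR without EGFR-WT replicate 1, 2 or 3 (539, 725 and 852 at an unadjusted p under 0.05). The median log2 fold change of the members, −0.03, lay between −0.25 without EGFR-WT replicate 3 and 0.18 without EGFR-WT replicate 2, less than the SD of 0.30 between library medians away. Library size alone moved the median of all genes to −0.10 and that of the members to −0.14.

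Gp1ba stayed above 0 (0.08 to 1.05) and Rab27b below 0 (−0.44 to −0.18) in all 16 alternatives, and the other 7 members changed sign in at least 1. With 1 library left out, the log2 fold change ran from −0.34 to 0.34 for Pf4, −0.20 to 0.37 for Itga2b, −0.25 to 0.18 for Gp1bb, −0.13 to 0.17 for Gp9, −0.34 to 0.046 for Gp5, −0.71 to 0.096 for Clec1b and −0.18 to 1.10 for Ppbp. DESeq2 without EGFR-DN replicate 3 gave 0.099 for Pf4, 0.22 for Itga2b, −0.0019 for Gp9 and 0.048 for Gp5. For Ppbp it gave 1.11 with a DESeq2 adjusted p of 0.0605, the lowest for any member named here over all 16 alternatives. With limma-voom Itga2b was at 0.011 and Gp1bb at 0.00063, and with at least 50 counts in 3 libraries Itga2b was at 0.014. Gp9 was at −0.079 with library size alone and −0.0030 with no filter. The causes were not tested.

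With the replicate number as a block, edgeR called 1 gene and 0 members, Itga2b was at 0.019 and Gp1bb at 0.016, and no call changed. The depth limits Clec1b, with at most 70 counts per library, and Gp6, with at most 27.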
